A study of Mus musculus with 4 samples.

Results

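Brush border peptidases are enzymes of the apical membrane of the intestinal epithelium that cut dietary peptides into amino acids and short peptides for uptake. The 7 genes described here are Dpp4, Enpep, Anpep, Mme, Ace, Mep1a and Mep1b. They were chosen by name: every probe set whose platform gene symbol is one of these was taken, which gave 13 probe sets of 45101 on the array, for 7 of 18193 genes. Dpp4 had 4 probe sets, Mme, Ace and Mep1a had 2 each, and Enpep, Anpep and Mep1b had 1 each.

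The microvillus membrane holds peptidases of several kinds that work in sequence on what pancreatic proteases leave over. Aminopeptidases and dipeptidyl peptidases take residues from the amino end, peptidyl dipeptidases take them from the carboxyl end, and endopeptidases cut inside the chain. The products leave the lumen through the peptide transporter Slc15a1 and through amino acid carriers. The same peptidases also cut peptide hormones such as angiotensins and incretins.

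Epithelium was laser-captured from sections of proximal colon and ileum of germ-free and of wild type C57/Bl6 mice; germ-free animals carry no microbes, and the wild type animals were the controls. Each of the 4 groups (germ-free colon, wild type colon, germ-free ileum and wild type ileum) had 1 array with RNA pooled from 4 mice, about 4000 cells from each. The sources used here give neither age nor sex of the mice, and hematoxylin staining is mentioned for the germ-free samples alone. A single pooled array per group leaves every difference without replicates, so no p-value was computed and precision is limited by the count of arrays.

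Levels are quantile-normalized intensities of single probe sets. A floor was set at 62.4, the median over all arrays together, and a difference against a lower value is given as "at least". Intensities of different probe sets are not comparable with each other, so outside the marker sums each gene is compared only with itself. Those sums, given below, weigh each probe set by its brightness. As a gauge of disagreement between probe sets, the SD between the brightest probe sets of a gene was taken over 2647 genes. It was 0.32 log2 for the germ-free difference in colon and 0.23 log2 in ileum. Probe sets of a gene share the same arrays, so this SD leaves out errors of capture, amplification and hybridization. It does not cover the spread between mice either. The regional marker Car1, a carbonic anhydrase of colonocytes, went with the labels. It read 32.5 on the germ-free ileum array and 64.7 on the wild type ileum array. On the germ-free colon array it read 12438 and on the wild type colon array 14384. All 4 colonocyte markers measured were lower in ileum than in colon in wild type mice. In germ-free mice 3 were lower in ileum and 1, Aqp8, was higher, at 130 in ileum against 76.4 in colon. The median of 3 probe sets for 18S ribosomal RNA differed between germ-free and wild type by -1.23 log2 in colon and -0.93 log2 in ileum. The 5' signal of Gapdh relative to its 3' signal differed by -0.48 log2 in colon and -1.10 log2 in ileum. Their part in the results below was not tested.

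The promoters of Dpp4 and Enpep are shown because these are the members past 2-fold between germ-free and wild type colon with both arrays above the floor. Both come from RefSeq (GRCm38.p6) and run from 250 bases before to 50 bases after a transcription start, on the minus strand, at chr2:62412182-62412481 for Dpp4 and chr3:129332700-129332999 for Enpep. Capitals mark matches, on either strand, to the motif of CDX factors, spelled TTTATN, and to that of GATA factors, which is spelled AGATAA.
Dpp4: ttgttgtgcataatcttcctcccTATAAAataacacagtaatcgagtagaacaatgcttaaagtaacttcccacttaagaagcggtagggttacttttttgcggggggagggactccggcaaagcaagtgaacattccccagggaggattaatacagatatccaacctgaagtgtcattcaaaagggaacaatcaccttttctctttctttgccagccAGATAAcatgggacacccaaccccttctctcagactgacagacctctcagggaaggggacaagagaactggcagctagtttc
Enpep: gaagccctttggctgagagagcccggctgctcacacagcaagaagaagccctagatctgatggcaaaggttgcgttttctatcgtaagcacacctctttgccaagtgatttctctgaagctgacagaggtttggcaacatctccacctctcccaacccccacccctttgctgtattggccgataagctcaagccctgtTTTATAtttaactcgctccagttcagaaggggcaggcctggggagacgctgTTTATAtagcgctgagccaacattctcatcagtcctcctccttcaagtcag

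The Dpp4 window held 1 match to TTTATN and 1 to AGATAA, and the Enpep window held 2 matches to TTTATN. Among all 32851 promoter windows in the table, TTTATN occurred in 39.9%, AGATAA in 11.2% and GTTAAT, part of the site of HNF1 factors, in 7.10%. The table held 9 windows for 6 of the members, and GTTAAT was in 0 of the 9. TTTATN was also in the Mep1a window and in 1 of the 2 Ace windows, and none of the 3 motifs was in the Anpep window or the 3 Mme windows. These matches describe letters in the windows and say nothing of binding.

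Germ-free and wild type colon were compared first, to see which peptidase transcripts differ in epithelium without microbes. Dpp4 and Enpep were 3.36-fold and 2.91-fold higher in germ-free colon, and Anpep was at least 1.75-fold higher. The meprin genes Mep1b and Mep1a stood 1.36-fold and 1.09-fold higher, Ace 1.36-fold lower, and Mme was below the floor on both colon arrays.

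**Figure D1:**
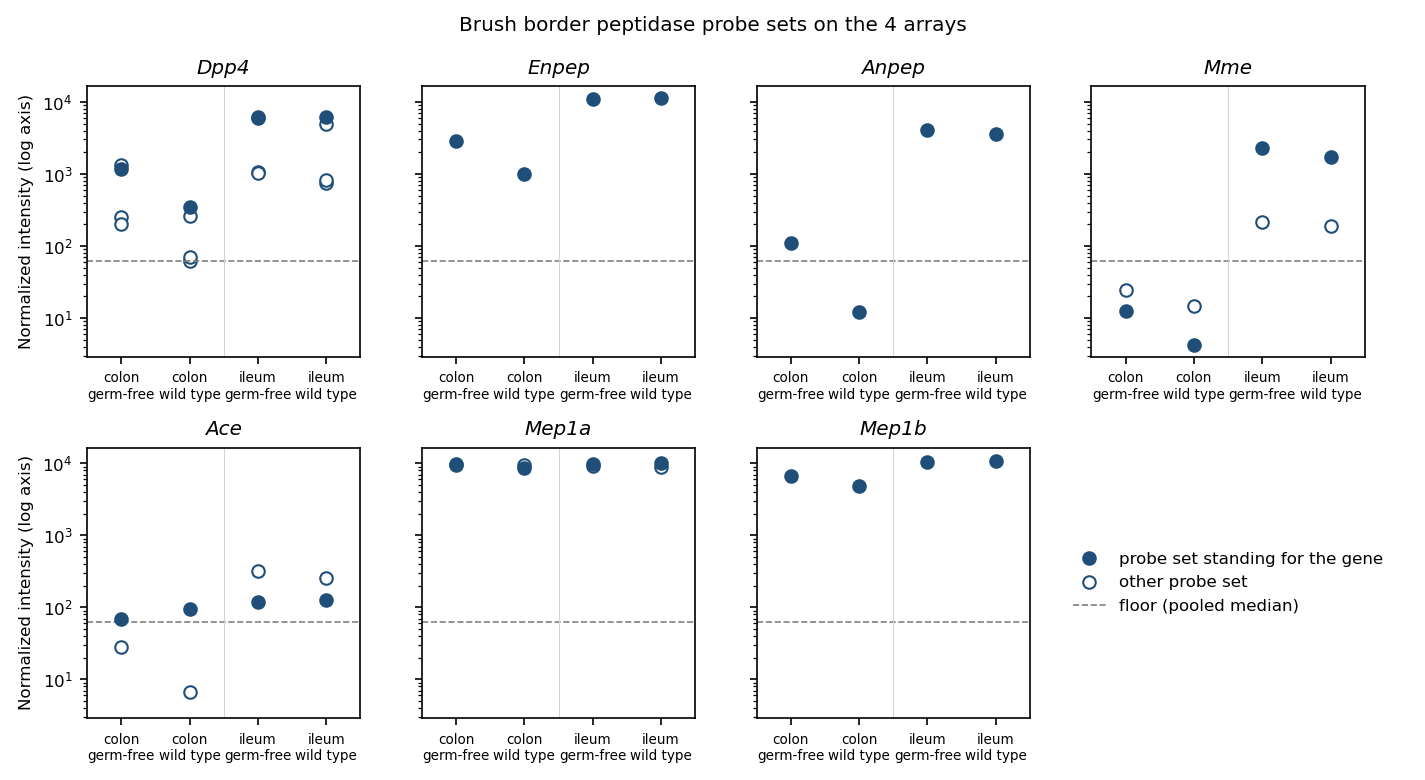
Normalized intensity (log axis) of each member's probe sets on the germ-free and wild type colon and ileum arrays, 1 point per probe set and array; filled points are the probe set that stands for the gene and the dashed line is the floor of 62.4. Dpp4 and Enpep are high on both ileum arrays, intermediate in germ-free colon and lowest in wild type colon, while Mep1a is level on all 4.

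Dpp4 encodes dipeptidyl peptidase 4, a serine peptidase that removes dipeptides after proline or alanine and that also inactivates incretins; the gene lies at chr2:62330073-62412315. Its brightest probe set (1416697_at) read 1169 in germ-free colon and 347 in wild type colon, and 6118 in germ-free ileum and 6251 in wild type ileum. The ileum arrays were thus nearly level, and the germ-free colon array stood between them and the wild type colon array.

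The other 3 Dpp4 probe sets had the same order of colon arrays. The probe set 1459973_x_at read 1341 in germ-free colon and 263 in wild type colon, 1438279_at read 254 against a value of 61.3 below the floor, and 1441342_at read 202 against 69.7. The germ-free difference in colon was 1.91 ± 0.35 log2 over the 4 probe sets (mean and SD), with folds from 2.90 to 5.10. These values take in 1438279_at at its bound of at least 2.02 log2. These probe sets share the same pair of arrays and are no replicates of the condition.

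Enpep encodes aminopeptidase A, which removes acidic residues from the amino end and converts angiotensin II to angiotensin III; it lies at chr3:129269177-129332749. Its probe set read 2898 in germ-free colon and 996 in wild type colon, and 11115 in germ-free ileum and 11199 in wild type ileum. This is the same order of arrays as for Dpp4. It rests on 1 probe set.

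Among 11746 genes measured in colon, Dpp4 ranked 17 and Enpep 32 from the highest germ-free difference, with genes known by a bound placed at it. Past 2-fold, 2 of the 6 measured members were higher in germ-free colon and 0 were lower, where 1.29% of all measured genes were higher and 3.23% lower by that much. The median difference over the 6 was 0.62 log2, against -0.01 over all measured genes, but it takes in Anpep at its bound. Over the 5 members above the floor on both colon arrays the median was 0.44 log2. The balance over all genes depended on the scaling: 152 genes were higher and 379 lower by 2-fold or more here, 296 and 275 in the values as deposited, and 121 and 499 with median scaling, while Dpp4 and Enpep were the members past 2-fold under each of these. The median of all measured genes was 0.09 log2 as deposited and -0.14 with median scaling.

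**Figure D2:**
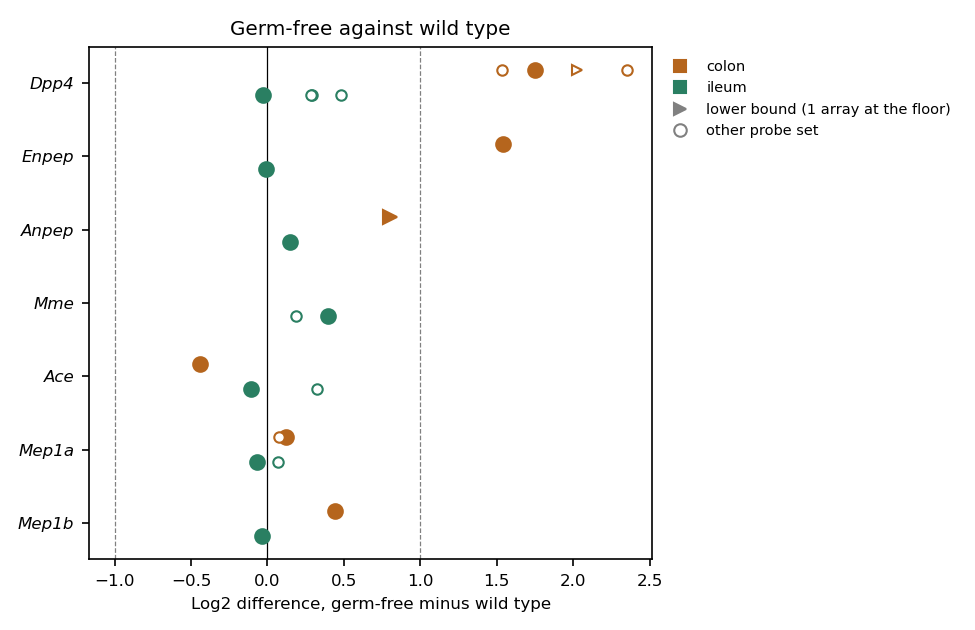
Log2 difference, germ-free minus wild type, for each member in colon (upper marker) and ileum (lower marker); open markers are other probe sets, triangles are lower bounds and dashed lines mark 2-fold. All 4 Dpp4 probe sets and the Enpep probe set lie beyond 2-fold in colon, and no member does in ileum.

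Anpep encodes aminopeptidase N, which removes neutral residues from the amino end; it lies at chr7:79821803-79848210. It read 109 in germ-free colon and 12.0, below the floor, in wild type colon. In germ-free ileum it read 4009 and in wild type ileum 3625. The colon difference of at least 0.80 log2 is set by the floor: with the floor at the pooled 25th percentile it was at least 2.44 log2. Anpep can therefore not be ranked below Dpp4 or Enpep.

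Mme encodes neprilysin, an endopeptidase that cuts before hydrophobic residues; it lies at chr3:63295211-63383713. Its brightest probe set (1455961_at) read 12.4 in germ-free colon and 4.26 in wild type colon, both below the floor, so no colon difference is given. It read 2284 in germ-free ileum and 1732 in wild type ileum. The other probe set (1422975_at) read 24.3 in germ-free colon, 14.6 in wild type colon, 217 in germ-free ileum and 191 in wild type ileum, the same split by region.

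Ace encodes angiotensin-converting enzyme, which removes dipeptides from the carboxyl end; it lies at chr11:105967948-105989964. Its probe sets disagreed about the gut regions. The probe set standing for the gene by the brightness rule (1451911_a_at) was near the floor throughout, at 69.0 in germ-free colon, 93.9 in wild type colon, 119 in germ-free ileum and 128 in wild type ileum. The other (1427034_at) was below the floor at 28.4 in germ-free colon and 6.62 in wild type colon, but read 317 in germ-free ileum and 253 in wild type ileum. The Ace colon difference of -0.44 log2 rests on 1451911_a_at, and none is given for 1427034_at.

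Mep1a and Mep1b encode the alpha and beta subunits of meprin, a zinc endopeptidase whose beta subunit anchors in the membrane; Mep1a lies at chr17:43474324-43504143. Mep1a (1450719_at) read 9489 in germ-free colon, 8717 in wild type colon, 9648 in germ-free ileum and 10101 in wild type ileum. The other Mep1a probe set (1447252_s_at) read 9871 in germ-free colon, 9377 in wild type colon, 9312 in germ-free ileum and 8891 in wild type ileum. Mep1a was thus level on all 4 arrays, and its colon difference of 0.12 log2 turned to -0.20 with median scaling.

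Mep1b read 6660 in germ-free colon and 4900 in wild type colon, and 10555 in germ-free ileum and 10812 in wild type ileum. Its order of arrays was that of Dpp4 and Enpep, but the colon difference of 0.44 log2 was smaller and fell short of 2-fold. It ranked 1334 of 11746 measured genes. With median scaling the difference was 0.13 log2.

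Germ-free and wild type ileum differed little in these genes. Past 2-fold, 0 of 7 measured members were higher and 0 lower, where 0.230% of 11750 measured genes were higher and 0.698% lower. The differences ran from -0.10 log2 for Ace to 0.40 log2 for Mme, with a median of -0.03 against 0.03 over all measured genes. Mme, 1.32-fold higher in germ-free ileum by its brightest probe set and 1.14-fold by the other, ranked 859 of 11750. Dpp4 was at -0.03 log2 by its brightest probe set and between 0.28 and 0.48 log2 by the other 3. Among the 13 probe sets, those above the SD of 0.23 log2 between probe sets were 1455961_at of Mme, these 3 of Dpp4, and 1427034_at of Ace at 0.32 log2.

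**Figure D3:**
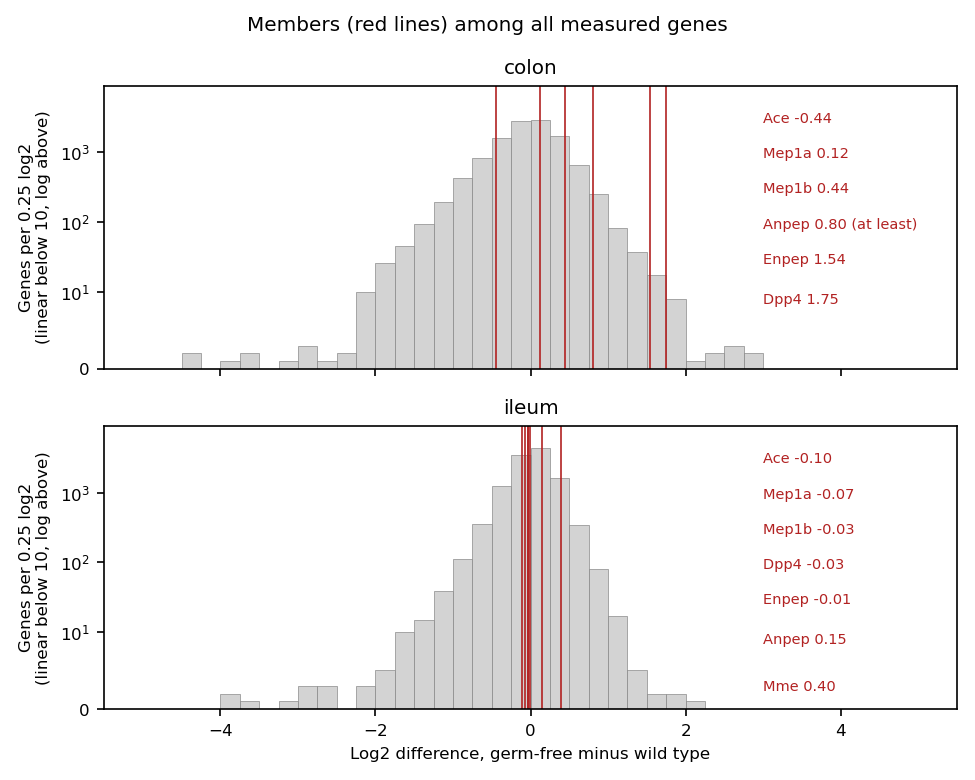
Number of genes per 0.25 log2 of germ-free minus wild type difference in colon (top) and ileum (bottom), on an axis that is linear below 10 and logarithmic above; red lines and names mark the measured members. In colon Dpp4 (1.75) and Enpep (1.54) lie in the upper tail, and in ileum all members lie between -0.10 and 0.40.

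Subtracting the ileal from the colonic germ-free difference left 1.78 log2 for Dpp4, 1.55 for Enpep, at least 0.66 for Anpep, 0.48 for Mep1b, 0.19 for Mep1a and -0.34 for Ace. By this measure 2 of 6 members were past 2-fold upward and 0 downward, where 2.16% of 11065 genes measured in both regions were past it upward and 4.98% downward. All 4 Dpp4 probe sets were past 2-fold, with differences from 1.24 to 2.07 log2. The median over the 6 members was 0.57 log2, against -0.02 over all genes, and 0.48 log2 over the 5 members above the floor on all 4 arrays. With 1 array per group this difference was not tested. The split over all genes moved with the scaling here too, with 239 genes higher and 551 lower in this setting, 468 and 371 as deposited, and 186 and 708 with median scaling.

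Ileum and colon were compared within each state to place these differences along the gut. In germ-free mice Anpep was 36.8-fold, Mme at least 36.6-fold, Dpp4 5.24-fold and Enpep 3.84-fold higher in ileum than in colon. In wild type mice the same genes were higher in ileum by at least 5.86, at least 4.79, 4.17 and 3.49 log2, the first being at least 58.0-fold. Mep1b was 1.58-fold higher in germ-free ileum and 2.21-fold higher in wild type ileum, and Mep1a differed by 1.02-fold and 1.16-fold. The germ-free and wild type values use separate pairs of arrays, but each shares an array with the germ-free differences above, and the sets are given side by side. For each gene, the wild type minus the germ-free regional difference is the same number as the colon change minus the ileum change above.

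In germ-free mice 4 of 7 members were past 2-fold higher in ileum and 0 lower, where 7.37% of 11986 measured genes were higher and 5.88% lower. In wild type mice 5 of 7 were higher and 0 lower, where 6.04% of 12000 genes were higher and 5.93% lower. The fifth gene was Mep1b. The member medians were 1.94 log2 in germ-free and 3.49 log2 in wild type mice, against 0.04 and -0.01 over all measured genes. Mme in both states and Anpep in wild type mice were above the floor through ileum alone. The members above the floor on both arrays compared had medians of 1.36 log2 in germ-free (6 members) and 1.14 log2 in wild type mice (5 members), and 3 of them were past 2-fold higher in each state. In germ-free mice the split over all genes was 883 higher and 705 lower, against 627 and 1001 as deposited and 1072 and 586 with median scaling, and the 4 members were past 2-fold in each. For Ace the probe set 1427034_at was at least 5.08-fold higher in germ-free ileum and at least 4.06-fold higher in wild type ileum, where the probe set standing for the gene gave 1.73-fold and 1.36-fold. The 2 Mme probe sets gave bounds of 36.6-fold and 3.48-fold in germ-free mice, both against colon values below the floor.

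**Figure D4:**
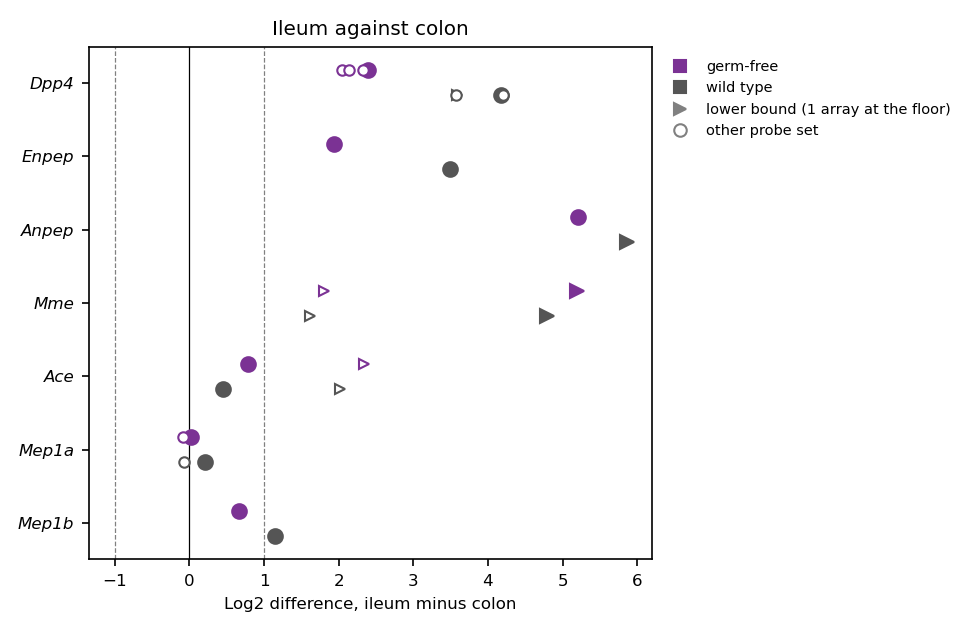
Log2 difference, ileum minus colon, for each member in germ-free mice (upper marker) and wild type mice (lower marker); open markers are other probe sets, triangles are lower bounds and dashed lines mark 2-fold. Dpp4 and Enpep have a smaller regional difference in germ-free (2.39 and 1.94) than in wild type mice (4.17 and 3.49), and Mep1a lies near 0 in both. The gap between the states restates the difference between the colon and ileum germ-free changes.

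Expressed as a share, the colon level of Dpp4 was 19.1% of its ileum level in germ-free mice and 5.56% in wild type mice. The other Dpp4 probe sets gave from 19.9% to 24.3% in germ-free mice and from 5.42% to 8.39% in wild type mice, the value of 1438279_at being at most 8.36%. The Enpep share was 26.1% in germ-free and 8.90% in wild type mice. For Anpep it was 2.72% in germ-free mice and at most 1.72% in wild type mice. Mep1b stood at 63.1% and 45.3% in germ-free and wild type mice, and Mep1a at 98.3% and 86.3% by its first probe set and 106% and 105% by 1447252_s_at. Germ-free colon thus held a larger share of the ileal level of Dpp4 and Enpep than wild type colon did, and that share remained below the ileal level itself. These shares are the regional differences in another form. They restate the difference between the colon and ileum changes and are no further observation.

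Likeness of pattern was measured as the root mean square difference between log2 profiles over the 4 arrays, after flooring and subtracting each profile's mean, among 7611 other bright genes (7612 for Ace). The genes most like Dpp4 were Slc6a20a, a carrier of proline and other imino acids (0.20 log2), Tmem117 (0.21) and Tkfc (0.28), and Enpep came next at 0.29. Most like Enpep were Tspan5 (0.14), Tkfc (0.18) and Gp1bb (0.19), with Dpp4 at rank 11. Most like Anpep were Fxr2 (0.099), the neutral amino acid carrier Slc6a19 (0.17) and the anion exchanger Slc26a6 (0.29), with Mme at rank 14. Anpep, Fxr2, Slc26a6 and Mme were below the floor in wild type colon, so the floor made their values there equal.

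The genes most like Mme were Tm4sf5 (0.058), Serpina1b (0.064), which belongs to a family of near-identical genes, and Nat8 (0.12). Mme and these 3 genes were below the floor on both colon arrays, so the floor made their colon values equal and the likeness rests on ileum. Within 0.25 log2 lay 2 genes for Dpp4, 7 for Enpep, 2 for Anpep and 7 for Mme. For the flatter profiles there were many more, 3857 for Mep1a, 1139 for Ace and 586 for Mep1b, so their nearest genes single out little. They were Slc38a10, Dnajc3 and Suz12 for Mep1a, Dtx3l, Ehbp1l1 and Tle4 for Ace, and Slc35b1, Stom and Dgka for Mep1b. These values describe 4 arrays and carry no test.

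Other peptidases of the cell surface were set beside the members. For this and the following lists, 1.29% of all measured genes were past 2-fold higher and 3.23% lower in germ-free colon. In germ-free ileum the shares were 0.230% and 0.698%. Naaladl1, an ileal brush border peptidase, read 5834 in germ-free colon and 2342 in wild type colon (2.49-fold higher), and 11467 and 10610 in germ-free and wild type ileum. Xpnpep2, the membrane aminopeptidase P, was at least 1.60-fold higher in germ-free colon at 99.9 against 50.4, below the floor. Dpep1, a membrane dipeptidase, was 1.25-fold higher, and Cpm, a membrane carboxypeptidase, 1.67-fold lower at 402 against 673. Of the 4 measured genes of this list 1 was at least 2-fold higher and 0 lower in colon, and 0 were past 2-fold in ileum. Folh1 and Tmprss15 were below the floor on all 4 arrays.

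The list of peptide and amino acid carriers, not limited to uptake from the lumen, had 4 of 11 measured genes at least 2-fold higher in germ-free colon. None was lower by that much, and the median was 0.59 log2. Slc15a1, the apical transporter of di- and tripeptides, read 586 in germ-free colon and 81.3 in wild type colon. Slc6a20a was 3.75-fold higher, Slc7a9, the light chain of the cystine and basic amino acid carrier, 2.65-fold, and the aromatic amino acid carrier Slc16a10 2.24-fold. In ileum 0 of 11 were past 2-fold, with a median of 0.07 log2. Of the 11 carriers 10 were at least 2-fold higher in ileum than in colon, both in germ-free and in wild type mice. Over all measured genes the shares were 7.37% in germ-free and 6.04% in wild type mice. The wild type count takes in a carrier above the floor in ileum alone. Of carriers above the floor on both arrays compared, 10 of 11 were past 2-fold higher in germ-free mice and 9 of 10 in wild type mice.

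Peptidases inside the cell were closer to level. Of 16 measured cytosolic and lysosomal peptidases 0 were at least 2-fold higher and 1 lower in germ-free colon, with a median of 0.08 log2. The lower one was Dpp7, a lysosomal dipeptidyl peptidase, at 261 against 544. Acy1, an aminoacylase, was at least 1.90-fold higher in germ-free colon and 1.63-fold higher in germ-free ileum. Blmh stood 1.38-fold higher in germ-free colon, and Lap3 1.49-fold lower in germ-free ileum.

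Other brush border hydrolases had 2 of 6 genes measured in colon and 0 past 2-fold there. Alpi, the intestinal alkaline phosphatase, read 1820 in germ-free colon and 1055 in wild type colon. Mgam, a disaccharidase, read 1853 and 1678 in germ-free and wild type colon, and 5199 and 8425 in germ-free and wild type ileum. The structural genes of the microvillus had 0 of 10 past 2-fold in either region, with medians of 0.23 log2 in colon and -0.07 in ileum. The largest of these was Myo1a, a microvillus myosin, 1.42-fold higher in germ-free colon.

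Of 7 enterocyte transcription factors measured, 1 was at least 2-fold higher in germ-free colon and 0 lower. It was Hnf4g, a nuclear receptor of the small intestine, which read 560 in germ-free colon and 268 in wild type colon, and 1596 in germ-free ileum and 2012 in wild type ileum. Cdx2 was at 0.38 log2, Cdx1 at -0.01 and Gata5 at -0.47 in colon. Of the genes of the angiotensin system, whose peptides Ace and Enpep cut, Agt alone of 4 was above the floor on any array. It read 49.0, below the floor, in germ-free colon and 86.2 in wild type colon. In germ-free ileum it read 118 and in wild type ileum 115.

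**Figure D5:**
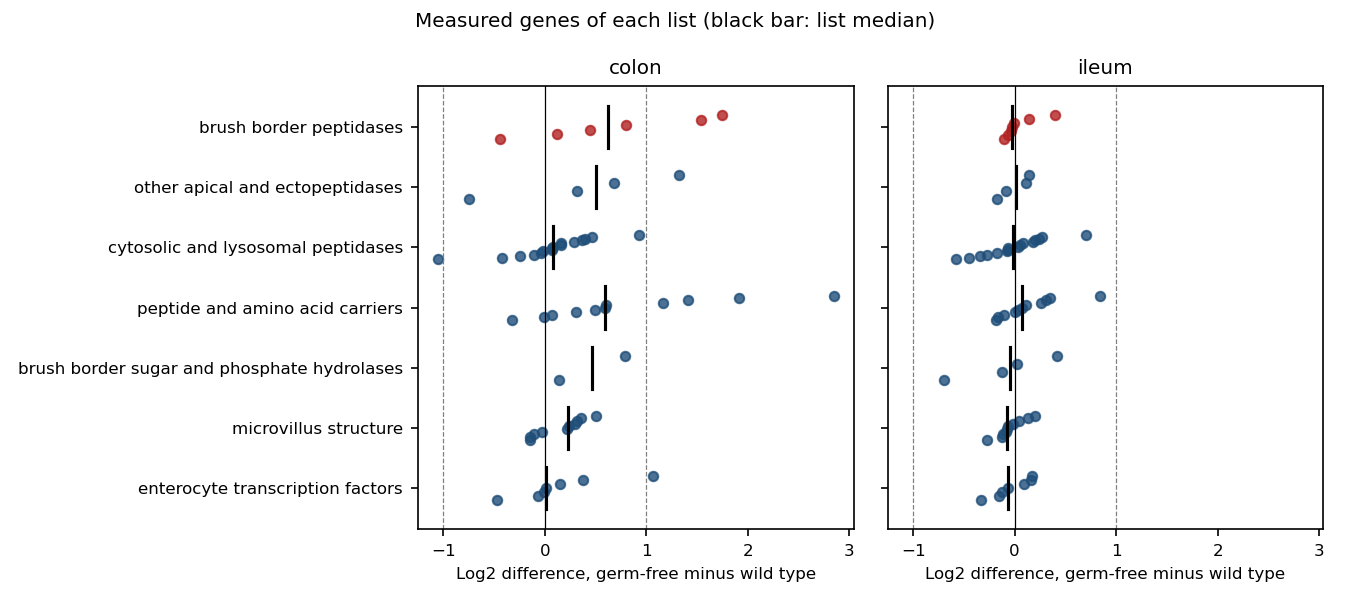
Log2 difference, germ-free minus wild type, of the measured genes of each list in colon (left) and ileum (right); each point is a gene (bounds are plotted at the bound), black bars are list medians and dashed lines mark 2-fold. In colon the peptidases (median 0.62) and the carriers (0.59) hold several genes past 2-fold higher, and in ileum no gene of the 7 lists shown is past 2-fold.

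Some members are also made by other cells: Dpp4 by T lymphocytes, Anpep by myeloid cells, Ace by endothelium, and Enpep and Mme by pericytes or fibroblasts. Fewer cells of a type and less RNA per cell cannot be told apart in these pools. The sums below take in every marker above the floor on at least 1 array, with its values below the floor on other arrays. T lymphocyte markers (3 of 7, without Cd3e, Cd3g, Cd3d and Cd4) summed to 199 in germ-free colon and 600 in wild type colon. Of these, Gzma and Gzmb were below the floor in germ-free colon. Pericyte markers (5 of 6) summed to 851 in germ-free colon and 896 in wild type colon, and fibroblast and smooth muscle markers (9 of 10) to 3866 and 4341. On each colon array 3 of these pericyte and 6 of these fibroblast and smooth muscle markers were above the floor. The pericyte gene Rgs5 read 271 in germ-free colon and 523 in wild type colon, while Pdgfrb read 422 in germ-free colon and 180 in wild type colon. In ileum the 3 lists summed to 700 and 1140, 1205 and 3599, and 4221 and 6613 in germ-free and wild type mice. Rgs5 read 193 in germ-free ileum and 2632 in wild type ileum, where it made up most of the pericyte sum. Of 5 pericyte markers measured in ileum 2 were higher and 3 lower in germ-free mice, with a median of -0.03 log2. A sum over probe sets is led by its brightest, so single markers can go the other way.

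Endothelial markers (4 of 6, without Pecam1 and Vwf) summed to 272 in germ-free colon and 617 in wild type colon, and to 420 and 422 in germ-free and wild type ileum. Myeloid markers (6 of 7) summed to 1969 in germ-free colon and 2124 in wild type colon. Plasma and B cell markers (4 of 6, without Cd79a and Ms4a1) summed to 876 and 6360. Igha, at 501 in germ-free colon and 4609 in wild type colon, and Jchain, at 197 and 1549, made up most of these sums. Mzb1 was nearly level at 143 and 149, and Cd79b was below the floor on both colon arrays. The myeloid gene Cd14 read 673 in germ-free colon and 342 in wild type colon, against the direction of its list's sum.

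The absorptive enterocyte markers (7 of 7 on the array) summed to 18714 in germ-free colon and 16217 in wild type colon, and the colonocyte markers (4 of 4) to 25075 and 31453. Fabp2, a fatty acid-binding protein, made up most of the enterocyte sum, at 14524 in germ-free colon and 13235 in wild type colon. Of 6 enterocyte markers measured in colon 1, Apoa1, was at least 2-fold higher in germ-free mice, at 245 against 34.8, below the floor. Of the 6, 4 were higher and 2 lower in germ-free colon, with a median of 0.21 log2. Alpi was 1.72-fold higher in germ-free colon, Fabp1 1.80-fold lower and Apoa4 at least 1.25-fold lower. All 4 colonocyte markers were lower in germ-free colon, with a median of -0.40 log2. Of these 1, the water channel Aqp8, was at least 2-fold lower at 76.4 against 545. Over the markers measured in colon, the median difference was -0.13 log2 for 6 goblet and -0.24 for 6 enteroendocrine markers. It was -0.52 for 3 Paneth, -1.04 for 3 tuft and 0.01 for 3 crypt stem and progenitor markers. Of the 3 tuft markers 2 were lower and 1 was higher in germ-free colon. The part of cell composition in the peptidase differences was not tested.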

How the data were processed

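The authors computed the deposited intensity of each probe set, on a linear scale, with dCHIP2004, per the series' design text, under options that the sources used here do not give. Per the labels' protocols, about 16000 cells were captured per group and 40 ng of RNA was amplified in 2 rounds. The table holds 45101 probe sets, 64 of them controls. Of the others, 34945 had 1 gene symbol, 932 several and 9160 none here; 34741 identifiers were found in a RefSeq table (GRCm38.p6), and 0 symbols changed. Values were set to at least 1, log2-transformed, quantile-normalized without the controls and floored at the pooled median. The probe set with the highest mean log2 intensity before the floor stood for a gene. A gene was measured if at least 1 compared array was above the floor, and for the colon-against-ileum change if measured in both regions. Differences of log2 values past 2-fold were counted. The steps were tested on simulated data (Python 3.11.15, numpy 2.4.6, pandas 2.3.3).

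Members, the 21 gene lists (147 of 158 entries on the array) and the tests were chosen with earlier results of these data known. Other genes named are, from each list, up to 4 with the largest germ-free difference, and the 3 genes nearest in pattern to each member. Fabp2 is also named, for its part in the enterocyte sum. Protein sequences were not used here.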

Additional observations from a re-analysis of the deposited data

Results flagged for a closer look

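By its brightest probe set, the germ-free change of Dpp4 had opposite signs in the 2 regions. It was 3.36-fold higher in colon and at -0.03 log2 in ileum, a difference between the changes of 1.78 log2. The change of Enpep had opposite signs too, 2.91-fold higher in colon and at -0.01 log2 in ileum, a difference of 1.55 log2. Each region has 1 array per state, so neither difference was tested. Both ileum values are smaller than the SD of 0.23 log2 between probe sets. The other 3 Dpp4 probe sets were higher in germ-free ileum by 0.28 to 0.48 log2, above that SD. For Enpep the opposite signs therefore amount to a change in colon beside a nearly level ileum. For Dpp4 the sign in ileum depends on the probe set, while the difference between the changes was past 2-fold in all 4.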

How the results depend on the processing

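With 1 array per group no replicate could be left out. No paired analysis was possible because each group has 1 array. Of 85 counts and medians over the members under 8 planned and 1 added alternative settings, 75 stayed within 1.5 times (counts) or within the SD between probe sets (medians), and 0 turned direction among values past 2-fold. The floor moved the others most. The median colon difference was 0.99 log2 with the floor at the pooled 25th or 75th percentile and 1.54 with no floor, and the median difference between the colon and ileum changes was 1.01, 1.01 and 1.14. With no floor 4 members were past 2-fold in colon, and 4 by the difference between the changes, since Anpep and Mme were then counted at values below the floor. The wild type regional median was 3.12 with the floor at the 75th percentile. The germ-free regional median was 2.35 with the brightest probe set taken after the floor, an alternative chosen after seeing the data, and Ace was then represented by 1427034_at. Dpp4 ranged from 1.60 to 1.91 log2 and Enpep from 1.32 to 1.57 log2 in colon over 8 alternatives each. Depth does not apply to arrays; values near the floor (Ace, Anpep and Mme in colon) limit what can be read.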
